A study of Mus musculus with 6 samples.

Results

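The digestive enzymes that the exocrine pancreas secretes were measured in the mucosa of the glandular stomach of mice. The genes examined were the elastases Cela3a and Cela3b, the chymotrypsins Ctrb1 and Ctrl, the trypsin Prss2, the carboxypeptidases Cpa1 and Cpb1, the lipases Pnlip and Cel, and Clps. They were chosen by name, as every probe that is not a control and whose gene is 1 of these 10. The arrays held 12 such probes, for 10 of 31689 genes and transcripts. By the arrays' own names 9 of the 10 genes were found. Cela3a carries the name Gm13011 there and was identified through its RefSeq accession, and no probe bore an older Ela name.

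The tissue came from C57BL/6J mice that were either A4gnt null or wild type, at 5, 10 and 50 weeks. A4gnt encodes the glycosyltransferase that adds the terminal alpha-linked N-acetylglucosamine of gastric gland mucin. The mucosa had been stripped from the muscular layer before RNA was extracted, and each genotype and age is 1 array, so there are 3 A4gnt null and 3 wild-type arrays. The 3 A4gnt null arrays lay on 1 slide and the 3 wild-type arrays on another, so slide and genotype cannot be told apart. The labels do not give the sex of the mice.

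The acinar cells of the pancreas store trypsin, chymotrypsins, elastases and carboxypeptidases as inactive zymogens and release them into the duodenum, where enteropeptidase activates trypsin and trypsin activates the others. Pancreatic lipase acts on fat droplets with its cofactor colipase, the product of Clps, and bile salt-activated lipase, the product of Cel, cleaves a wider range of esters. The genes are known for very high levels in acinar cells, where the factors PTF1A and RBPJL drive them, and the pancreas lies against the stomach wall.

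Each gene is read through an oligonucleotide of 60 bases, and 5 of the 12 are shown because the results turn on them. The second Cela3a probe and the Cela3b probe come from near-identical paralogs and are given first, with the bases that differ between them in capitals. Over the 58 bases that the pair shares, 52 match (89.7% identity), so that each may bind some transcript of the other gene. The Cpa1 probe stands for the genes that were near background on some arrays, the Prss2 probe for those that persisted, and the Clps probe for the gene that was bright on every array. All sequences are written 5′ to 3′, and positions are those of the file headers' build, mm9.
Cela3a second probe, chr4:136959734-136959793, minus strand: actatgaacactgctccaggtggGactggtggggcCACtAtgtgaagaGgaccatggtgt
Cela3b probe, chr4:136979192-136979251, minus strand: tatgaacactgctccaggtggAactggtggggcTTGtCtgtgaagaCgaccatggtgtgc
Cpa1 probe, chr6:30595240-30595299, plus strand: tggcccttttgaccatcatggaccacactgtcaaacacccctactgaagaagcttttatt
Prss2 probe, chr6:41473937-41473996, plus strand: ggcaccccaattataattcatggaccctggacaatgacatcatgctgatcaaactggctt
Clps probe, chr17:28695162-28695221, minus strand: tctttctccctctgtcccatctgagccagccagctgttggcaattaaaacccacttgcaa
The Prss2 probe matches the probe of the trypsinogen Prss1 at 36 of 49 aligned bases (73.5%). The probes of the trypsinogens Try4 and Try5 match at 43 of 45 (95.6%), so that those 2 genes cannot be told apart well.

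Between 54.8% and 59.2% of 43020 spots per array were well above background, no spot was saturated, and replicate spots of a probe had a median SD of 0.0632 to 0.0727 on the log2 scale. The lowest signal called well above background was 10.1 to 11.6 units. The deleted gene was at background in the arrays labelled null. A4gnt had processed signals of 2.30, 2.94 and 2.11 in A4gnt null mucosa at 5, 10 and 50 weeks, none well above background, against 165, 325 and 264 in wild-type mucosa. In limma it differed by -6.75 ± 0.28 (SE, log2) with an adjusted p of 0.0952, the smallest adjusted p of all 17858 genes tested.

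The 5-week arrays stood apart in sex-linked genes, which were looked up after the values were seen. Xist, the RNA of the inactive X chromosome, had signals of 66.7, 3.55 and 2.73 in A4gnt null mucosa at 5, 10 and 50 weeks, against 161, 3.15 and 3.34 in wild-type mucosa. The Y-linked Ddx3y was the reverse, at 2.75, 222 and 251 in A4gnt null and 3.13, 320 and 202 in wild-type mucosa. The Y-linked Eif2s3y was at 3.39, 649 and 1090 in A4gnt null and 3.59, 650 and 684 in wild-type mucosa. Both 5-week arrays thus had Xist and neither Y-linked gene, and all 4 later arrays had both Y-linked genes and no Xist above background. Between 5 weeks and the later ages, age and these sex-linked signals cannot be told apart. The genotypes at each age matched in them.

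Most of the enzyme genes were either strongly present or close to background, and which of these held depended on the array. On 3 of the 6 arrays, A4gnt null at 5 weeks and wild type at 5 and 50 weeks, all 10 members were well above background, with signals of 129 and more. On the 2 arrays at 10 weeks, 5 of 10 members in A4gnt null and 6 of 10 in wild-type mucosa were above background, by the probe used for each gene. The A4gnt null array at 50 weeks had all 10 above background, but 8 of them only at 13.4 to 121 units. Summed over the 9 members other than Clps, the level relative to the array's 75th percentile was 101, 1.66 and 1.34 in A4gnt null mucosa at 5, 10 and 50 weeks, against 191, 3.12 and 40.3 in wild-type mucosa.

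**Figure D1:**
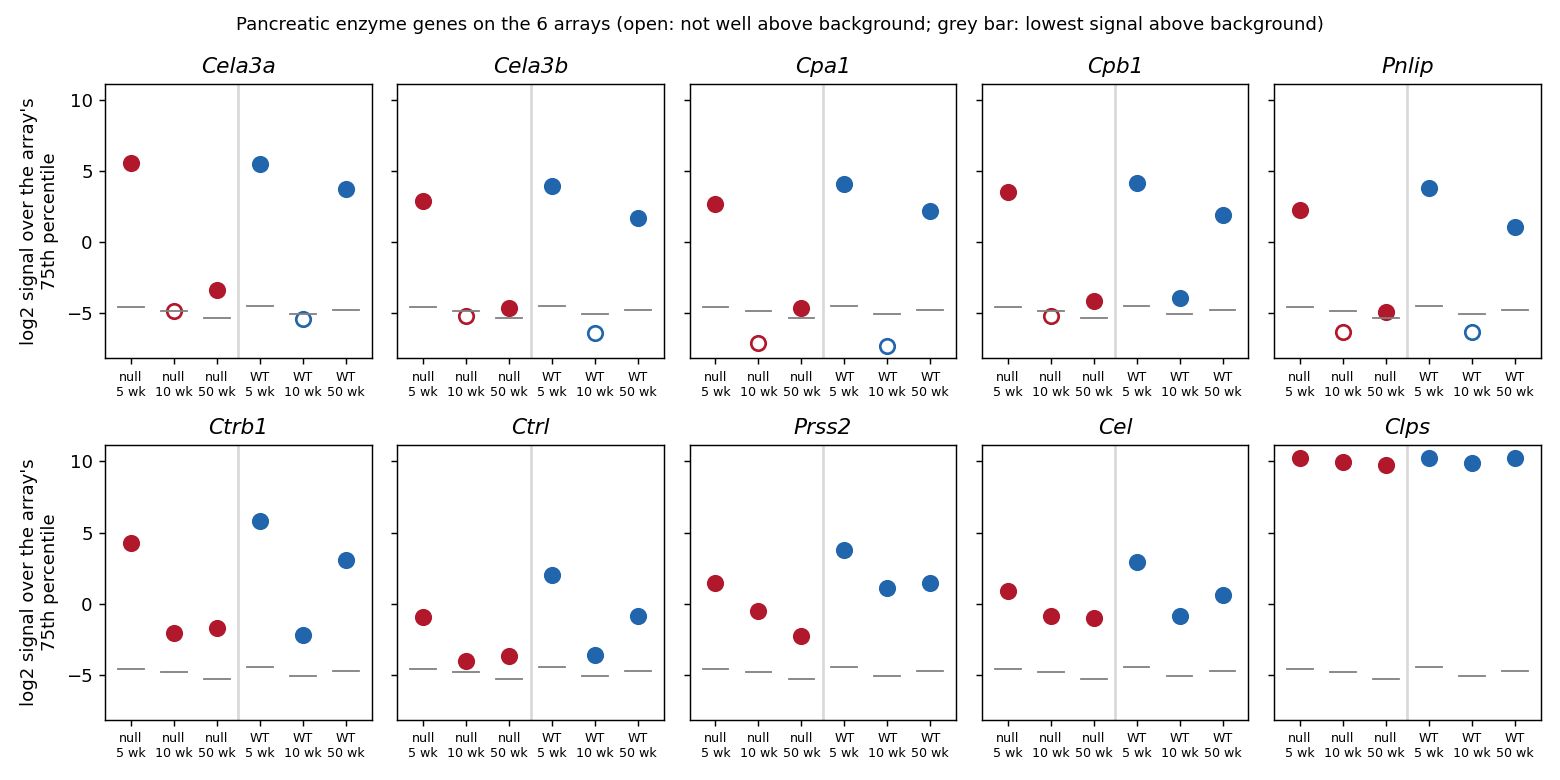
Level of each of the 10 genes on the 6 arrays, as the log2 of the processed signal over the array's 75th percentile (vertical axis), for A4gnt null (red) and wild-type (blue) mucosa at 5, 10 and 50 weeks, 1 array each. Open circles are not well above background and grey bars mark the lowest signal above background. The elastase, carboxypeptidase and Pnlip genes span over 9 log2 units between arrays, and Clps 0.53 by the probe used.

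Among the endopeptidases, both elastases followed this pattern in full by the probe used for each. Elastases cleave after small residues. Cela3a had signals of 11812, 11.4 and 38.9 in A4gnt null mucosa at 5, 10 and 50 weeks, against 11351, 8.42 and 3864 in wild-type mucosa, and both 10-week signals were not well above background. Its second probe gave 1221, 5.51 and 22.6 in A4gnt null and 2629, 20.9 and 615 in wild-type mucosa. Of these, only the 10-week A4gnt null signal was not well above background. The probes agreed on which arrays were high, but at 5 weeks the first had the genotypes at nearly the same level and the second had A4gnt null lower. The genomic span the array gives for the first probe covers only 12 bases, 136957469 to 136957480 on chromosome 4. Cela3b had 1843, 9.10 and 16.3 in A4gnt null and 4031, 4.29 and 932 in wild-type mucosa, with both 10-week signals not well above background.

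The chymotrypsins, which cleave after aromatic residues, kept a measurable signal on every array. Ctrb1, chymotrypsinogen B1, had 4866, 76.9 and 121 in A4gnt null mucosa at 5, 10 and 50 weeks, against 14510, 76.9 and 2479 in wild-type mucosa. Ctrl, a chymotrypsin-like protease, had 129, 20.1 and 31.4 in A4gnt null mucosa, against 1035, 28.6 and 162 in wild-type mucosa. In both genes the 2 arrays at 10 weeks and the A4gnt null array at 50 weeks were the 3 lowest. Prss2, an anionic trypsinogen, behaved differently, with 701, 227 and 84.8 in A4gnt null mucosa and 3420, 772 and 797 in wild-type mucosa. It was lower in A4gnt null mucosa at all 3 ages, the 10-week wild-type array was close to the 50-week one, and the lowest array was A4gnt null at 50 weeks.

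The carboxypeptidases trim peptides from the C-terminal end, Cpa1 at aromatic and aliphatic residues and Cpb1 at basic ones. Cpa1 had 1630, 2.46 and 16.4 in A4gnt null mucosa at 5, 10 and 50 weeks, against 4485, 2.28 and 1320 in wild-type mucosa, with neither 10-week signal well above background. It had the widest range of the members, 11.42 log2 units. Cpb1 had 2979, 8.98 and 22.7 in A4gnt null mucosa and 4625, 23.3 and 1087 in wild-type mucosa, and only the 10-week A4gnt null signal was not well above background.

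Of the lipolytic genes only Pnlip was near background at 10 weeks. Pnlip, pancreatic triglyceride lipase, had 1221, 4.07 and 13.4 in A4gnt null mucosa at 5, 10 and 50 weeks, against 3563, 4.58 and 595 in wild-type mucosa. Cel had 461, 182 and 196 in A4gnt null mucosa and 1935, 195 and 442 in wild-type mucosa, so that it kept a level well above background on every array. Clps was very bright throughout, at 313378, 333071 and 345079 in A4gnt null mucosa and 304144, 340308 and 348736 in wild-type mucosa. Its second probe gave 200582, 221015 and 145396 in A4gnt null and 249333, 380134 and 258922 in wild-type mucosa, lower in A4gnt null at each age. By neither probe was Clps near background at 10 weeks, and the second varied 2.94-fold over the arrays.

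Measured as the correlation of each member with the mean of the others over the 6 arrays, likeness ran from 0.76 for Prss2 to 0.999 for Ctrb1. Clps had 0.87, over a range of only 0.53 log2 units by the probe used. Before scaling, its signals were lowest at 5 weeks in both genotypes, where the other members were highest. The correlations are descriptions over 6 arrays that share their scaling, and the values are given with no test. In bulk tissue, fewer cells of a type and less RNA per cell cannot be told apart.

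At 5 weeks, 7 of the 10 members were at least 2-fold lower in A4gnt null mucosa, where 5.97% of all features measured were, and their median difference was -1.48 on the log2 scale against -0.02 for all features. With 1 array against 1 array these differences have no replicate check. Ctrl was 7.93-fold lower, Prss2 4.81-fold, Cel 4.14-fold, Ctrb1 2.94-fold and Pnlip 2.88-fold lower in A4gnt null mucosa. Cpa1 was 2.71-fold and Cela3b 2.16-fold lower, while Cpb1 was 1.53-fold lower and Cela3a and Clps were within 1.06-fold. The probes of Cela3a, at 0.08 and -1.09 on the log2 scale, differed from each other about as much as many of the members did.

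At 10 weeks there was little left to compare. Of the 5 members well above background on both arrays, Prss2 was 3.11-fold lower in A4gnt null mucosa, and it was the one member past 2-fold, where 6.5% of all features were. Ctrl was 1.30-fold lower and Cel, Ctrb1 and Clps were 1.02-, 1.09- and 1.07-fold higher in A4gnt null mucosa. Cpb1 was at least 1.84-fold lower. For Cela3a, Cela3b, Cpa1 and Pnlip neither array was well above background by the probes used, so that no fold is given. The second Cela3a probe had 20.9 in wild-type mucosa, well above background, and 5.51 in A4gnt null mucosa, not well above it.

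At 50 weeks, 9 of 10 members were at least 2-fold lower in A4gnt null mucosa, where 5.52% of all features were. Their median difference was -5.39, against 0.00 for all features. Cela3a was 138-fold lower, Cpa1 112-fold, Cela3b 79.6-fold, Cpb1 66.5-fold and Pnlip 61.4-fold lower. The second Cela3a probe gave -5.24 on the log2 scale, against -7.11 by the first, a smaller difference than the -5.94 of Pnlip. Ctrb1 was 28.5-fold, Prss2 13.04-fold, Ctrl 7.15-fold and Cel 3.13-fold lower, and Clps 1.40-fold. Before scaling, the Clps signals were nearly equal, at 345079 in A4gnt null and 348736 in wild-type mucosa. The 75th percentiles of these arrays were 402 and 290, so the 1.40-fold comes with the scaling. By its second probe Clps was lower by more, at -1.31 on the log2 scale, past 2-fold. The 5 genes with the largest differences are those that were not well above background in A4gnt null mucosa at 10 weeks.

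**Figure D2:**
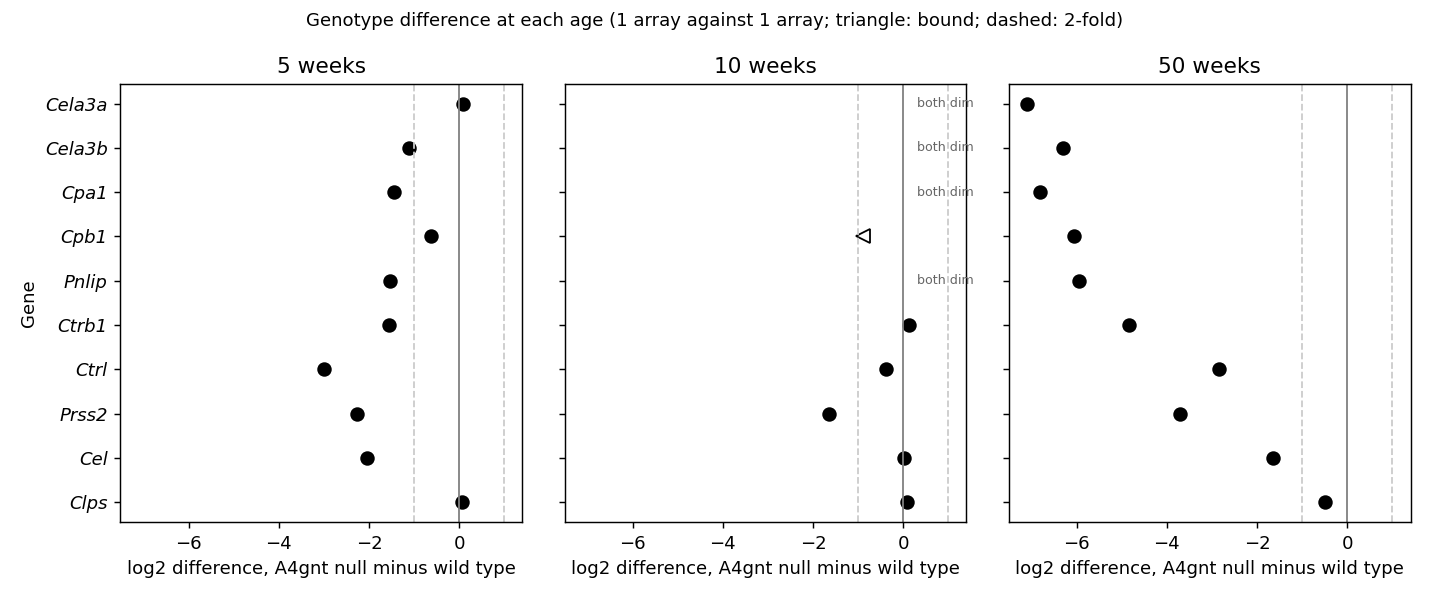
Difference of each of the 10 genes between A4gnt null and wild-type mucosa (horizontal axis, log2, negative is lower in A4gnt null) at 5, 10 and 50 weeks, 1 array against 1 array. Triangles are bounds, and genes that neither array measured are marked as dim. At 10 weeks 4 members have no value, Cpb1 has a bound of -0.88 and Prss2 lies at -1.64. At 50 weeks the members reach -7.11 for Cela3a by the probe used.

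Over the 3 ages together, no member passed the test for genotype. In the limma fit with age as a factor, 0 of 17858 genes had an adjusted p under 0.05 in the lower direction (0.0%) and 0 in the higher (0.0%), while 4227 had an unadjusted p under 0.05 (23.7%). All 10 members were lower in A4gnt null mucosa in that fit, with a median of -2.12 and a range of -2.67 to -0.11, against a median of -0.02 for all genes. Their adjusted p values ran from 0.137 to 0.718. Of the members, 2 had an unadjusted p under 0.05 in the lower direction, where 12.5% of all genes did. Prss2 averaged -0.43 ± 1.86 in A4gnt null and 2.10 ± 1.43 in wild-type mucosa (SD, n = 3 each, log2 level), a difference of -2.54 ± 0.44 (SE) with a limma adjusted p of 0.137. Ctrl averaged -2.89 ± 1.67 in A4gnt null and -0.83 ± 2.83 in wild-type mucosa, a difference of -2.07 ± 0.60 with a limma adjusted p of 0.176. Every member's A4gnt null and wild-type arrays overlapped, whereas 11.2% of all genes had all 3 A4gnt null arrays below all 3 wild-type arrays. With background correction by normexp, Prss2 passed with -2.21 and a limma adjusted p of 0.0404. In that setting 92 genes were called lower and 99 higher, against 0 and 0 in the main fit. Without the 50-week pair of arrays Cela3a, Cela3b and Clps turned to 0.32, 0.05 and 0.08, Cpa1 and Ctrb1 lay at -0.60 and -0.71, and Prss2 stayed at -1.95. Scaled to the median instead, Clps was at 0.05.

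Between 5 and 10 weeks nearly all members were lower on the single arrays of both genotypes, and the fit over both genotypes called none. In A4gnt null mucosa 9 of 10 were at least 2-fold lower at 10 than at 5 weeks, where 4.07% of all features were, and in wild-type mucosa 9 of 10, where 4.83% were. By the probe used, Cela3a was at least 1314-fold lower in A4gnt null and at least 1481-fold lower in wild-type mucosa. Its second probe was well above background on both of these wild-type arrays, with signals of 2629 and 20.9. On the scaled log2 level it went from 3.36 to -4.10, a smaller drop than the 5.47 to -5.41 of the first probe. Cpa1 was at least 181-fold lower in A4gnt null and at least 585-fold in wild-type mucosa. Ctrb1, measured on all 4 arrays, was 81.8-fold lower in A4gnt null and 263-fold in wild-type mucosa. Prss2 was 3.99-fold lower in A4gnt null and 6.17-fold in wild-type mucosa, and Clps 1.22- and 1.24-fold. Before scaling, the Clps signal was higher at 10 weeks in both genotypes, so it was lower only on the scaled level. In limma, all 10 members were lower at 10 weeks, with a median of -7.81 and adjusted p values of 0.388 to 0.583. Without adjustment 9 of 10 had a p under 0.05, where 7.02% of all genes did in that direction. Among these, by the probes used, Cela3a, Cela3b, Cpa1 and Pnlip were not well above background on either 10-week array, nor Cpb1 on the A4gnt null one. They entered the test through their other arrays. The sizes of their fitted differences, and so the median, rest on dim signals taken as measured, without the bounds used for the folds. The 2 genes called in this contrast (0.0112%) were the Y-linked Ddx3y and Eif2s3y, both higher at 10 weeks, and the sex-linked signals differ between these ages as described above. This contrast was added after the values were seen.

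Between 10 and 50 weeks the genotypes went apart on the single arrays. In wild-type mucosa 8 of 10 members were at least 2-fold higher at 50 weeks, where 3.07% of all features were. Cela3a was at least 447-fold, Cpa1 at least 153-fold, Cela3b at least 108-fold and Pnlip at least 68.8-fold higher. By its second probe, measured on both arrays, Cela3a was higher by 5.18 on the log2 scale, against at least 8.80 by the first. In A4gnt null mucosa 1 of 10 was at least 2-fold higher, Cela3a by at least 2.73-fold, where 0.782% of all features were, and 1 was at least 2-fold lower, Prss2 by 3.29-fold, where 3.59% were. That Cela3a bound is by the probe used. In A4gnt null mucosa its second probe had 22.6 at 50 weeks and 5.51, not well above background, at 10 weeks. The interaction of genotype with log age tested whether the genotype difference moved with age, and no member passed (smallest limma adjusted p 0.99996), as no gene did (0.0% in either direction, with 1.5% higher and 1.34% lower at an unadjusted p under 0.05). Without the wild-type array at 50 weeks every member's interaction turned positive, up to 9.79 for Cpa1. In limma, 50 against 10 weeks over both genotypes called no member (smallest adjusted p 0.709) and no gene (0.0%). Of the members, 2 were higher with an unadjusted p under 0.05, where 2.32% of all genes were. These were Cpa1 and Pnlip, neither well above background on either 10-week array. Both entered the test through their other arrays, and the sizes of their fitted differences rest on those dim signals.

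The wild-type array at 50 weeks had the same members high as the 5-week wild-type array, at a lower level. All 9 members other than Clps were lower at 50 than at 5 weeks in wild-type mucosa, by 3.32-fold for Cela3a to 7.21-fold for Ctrl. At least 2-fold lower were 9 of 10 members, where 5.95% of all features were. In A4gnt null mucosa the same 9 were lower by 3.73-fold for Cel to 482-fold for Cela3a, and 8.13% of all features were at least 2-fold lower. These folds are by the probe used for each gene. The second Cela3a probe had signals of 1221 and 22.6 at 5 and 50 weeks in A4gnt null mucosa, and 2629 and 615 in wild-type mucosa.

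Other acinar genes showed both patterns. Of 23 fixed genes of acinar secretory proteins 20 were on the arrays, 19 were tested, and none passed for genotype or for either age step. At 5 weeks 4 were at least 2-fold lower in A4gnt null mucosa and 2 higher, where 5.97% and 4.66% of all features were. At 10 weeks 8 were lower and 7 higher, where 6.5% and 5.18% were. At 50 weeks 13 were lower and 1 was higher, where 5.52% and 2.39% were. The elastase Cela2a had 391, 2.75 and 3.37 in A4gnt null mucosa at 5, 10 and 50 weeks, against 1544, 3.40 and 262 in wild-type mucosa. It was high on the same 3 arrays as the members.

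The trypsinogens Prss1, Try4 and Try5, by contrast, kept signals of at least 97.1 on all arrays. Prss1 had 476, 242 and 97.1 in A4gnt null mucosa at 5, 10 and 50 weeks, against 1803, 870 and 582 in wild-type mucosa, and was lower in A4gnt null at each age (-2.22 ± 0.31, limma adjusted p = 0.126). The lipase-related Pnliprp1 had 1101, 486 and 253 in A4gnt null and 2737, 1163 and 1015 in wild-type mucosa. Pla2g1b, a phospholipase, stayed between 102781 and 162411 in A4gnt null and between 188730 and 295484 in wild-type mucosa. Reg1, encoding a secreted lectin, was at 2859, 1597 and 15530 in A4gnt null mucosa and 3507, 150 and 413 in wild-type mucosa, with its highest signal where the members were low. Gp2, the major granule membrane protein, had 1342, 208 and 447 in A4gnt null mucosa and 1611, 10.2 and 280 in wild-type mucosa.

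**Figure D3:**
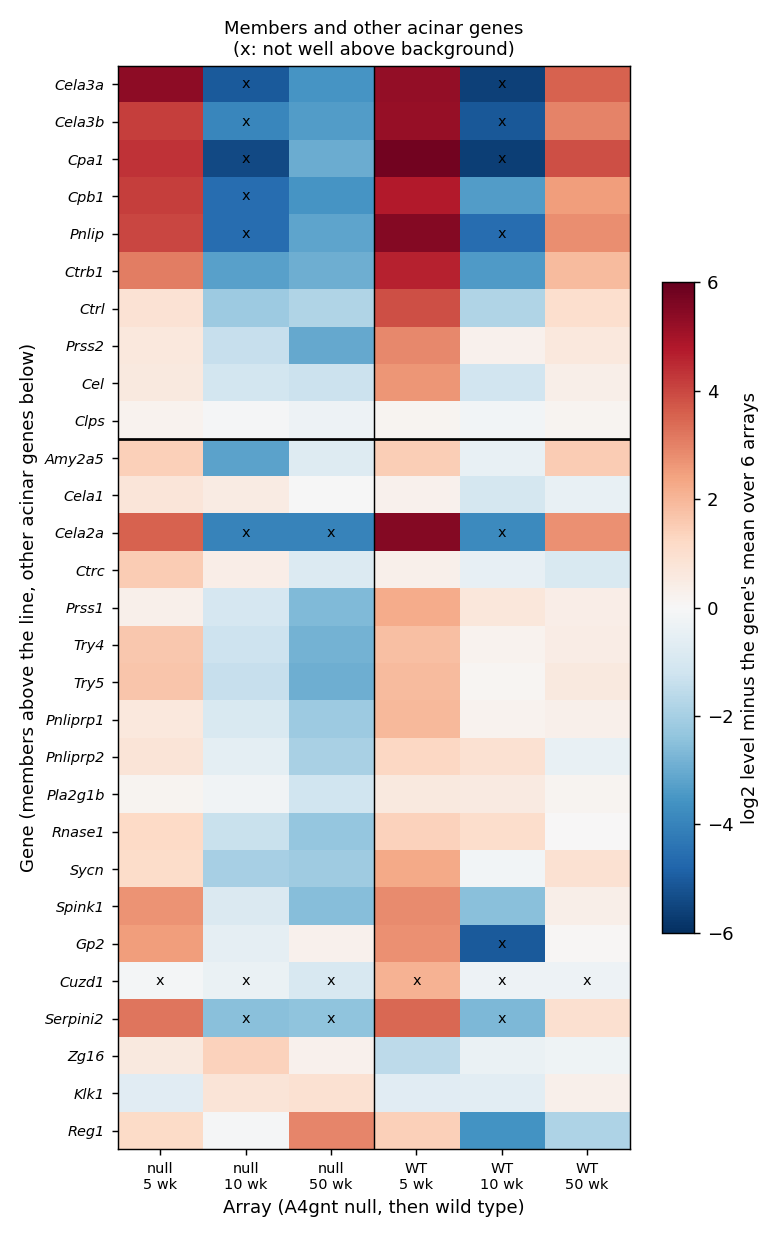
Level of the 10 members (above the line) and 19 other acinar genes (below it) on each of the 6 arrays, as the log2 level minus the gene's mean over the arrays (colour scale, red higher), A4gnt null on the left. An x marks a signal not well above background. Cela2a and Serpini2 have the members' pattern, while Pla2g1b, Cela1, Zg16 and Klk1 do not.

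By correlation with the members' mean profile over the 6 arrays, among 1689 tested genes with a range of at least 2 log2 units, the 10 most alike included Cela2a, Gm5771, Serpini2, 2210010C04Rik, Olfr362, Reg2, Aqp8, Spink1 and Smad9. The r of the 10 ran from 0.998 to 0.922, and 4 of the 10 were on the acinar list. Reg2, a lectin of the same family as Reg1, had 4065, 3.40 and 33.1 in A4gnt null mucosa at 5, 10 and 50 weeks, against 5167, 3.21 and 116 in wild-type mucosa. Olfr362 and Smad9 had ranges of 2.12 and 2.07 log2 units, little more than the limit used. Likeness was computed over 6 arrays of which 3 are high, and is given as a description.

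Genes that regulate acinar cells did not follow. Ptf1a, whose product pairs with RBPJL, was above background on every array, at 45.3, 35.4 and 29.1 in A4gnt null mucosa at 5, 10 and 50 weeks, against 48.2, 72.9 and 38.1 in wild-type mucosa. Rbpjl was also above background on every array, at 248, 388 and 456 in A4gnt null and 158, 250 and 397 in wild-type mucosa. Neither was lowest at 10 weeks in both genotypes. Bhlha15, a factor that gastric chief cells share with acinar cells, had 485, 601 and 514 in A4gnt null and 1155, 1417 and 735 in wild-type mucosa. Of the 12 listed genes of acinar regulators and machinery 9 were tested and none passed for genotype (smallest limma adjusted p 0.110).

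Of 13 genes of the pancreatic islets, Iapp, Slc2a2, G6pc2, Slc30a8 and Ucn3 were not above background on any array. Ins1 was above it on 1 array, the A4gnt null array at 5 weeks, at 12.2. Ins2, the main mouse insulin gene, was at 259, 200 and 143 in A4gnt null and 109, 98.3 and 74.8 in wild-type mucosa at 5, 10 and 50 weeks, with no drop at 10 weeks like that of the enzymes. Gcg, the glucagon gene, which gut endocrine cells also express, had 136, 69.1 and 47.4 in A4gnt null and 129, 86.7 and 43.0 in wild-type mucosa. It was lower at 10 than at 5 weeks by -1.20 ± 0.17 (limma adjusted p = 0.388) and lowest at 50 weeks in both genotypes. The islet list summed to 3.85 to 4.93 in A4gnt null and 3.46 to 4.21 in wild-type mucosa. Tmprss15, which encodes the enteropeptidase of the duodenum, was not above background on any array.

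Markers of other tissues next to the mucosa also varied between arrays, and their part in the members' values was not tested. Cfd, encoding the adipocyte protease adipsin, was above background on 2 arrays only, both in wild-type mucosa. It had 7.37, 5.95 and 2.46 in A4gnt null mucosa at 5, 10 and 50 weeks, against 125, 10.1 and 182 in wild-type mucosa. Adipoq was above it on 1 array, wild type at 50 weeks, at 21.4, while Lep and Plin1 were above it on none. Other adipocyte genes differed from Cfd. In wild-type mucosa at 5, 10 and 50 weeks Fabp4 had 4399, 9985 and 3281 and Lipe 23.7, 47.5 and 15.2, both highest at 10 weeks. Car3, like Cfd, was lowest there at 10 weeks, at 45.2, 16.5 and 81.6, and Cidec spanned only 0.66 log2 units over the 6 arrays. The adipocyte list of 9 genes summed to 33.8, 24.3 and 14.9 in A4gnt null and 21.5, 31.8 and 16.8 in wild-type mucosa.

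The liver list was highest on the 10-week wild-type array, where the members were low. Alb had 330, 39.0 and 25.7 in A4gnt null mucosa and 236, 3424 and 394 in wild-type mucosa at 5, 10 and 50 weeks. The liver list of 10 genes summed to 34.3, 14.5 and 11.3 in A4gnt null and 36.1, 106.96 and 27.7 in wild-type mucosa. Smooth muscle genes were lowest on a 5-week wild-type array that was high in the enzymes. Cnn1 had 1548, 3702 and 879 in A4gnt null and 214, 2946 and 4148 in wild-type mucosa. The list of 7 genes summed to 44.1, 56.8 and 16.7 in A4gnt null and 12.5, 42.7 and 66.8 in wild-type mucosa. Lor, a marker of keratinized epithelium, had 45.8, 41.0 and 33.6 in A4gnt null and 22.5, 1235 and 2725 in wild-type mucosa, high on both later wild-type arrays, of which only the older was high in the enzymes. Krt5 was high on the same arrays, at 470 and 612. Ivl was instead higher in A4gnt null at each age, at 159, 123 and 98.3 against 3.88, 50.9 and 17.7, and Krt13 spanned only 0.75 log2 units. That list of 7 genes summed to 8.91, 7.49 and 7.86 in A4gnt null and 9.53, 13.4 and 20.7 in wild-type mucosa. The mesothelium list of 6 genes summed to 3.84, 1.499 and 1.77 in A4gnt null and 2.05, 1.46 and 1.74 in wild-type mucosa. The lymphoid list of 8 genes was highest on the 3 arrays on which the enzymes were high. It summed to 6.05, 3.70 and 3.61 in A4gnt null and 5.47, 3.25 and 4.28 in wild-type mucosa. Most of that sum is Cd3e, a T cell receptor component, at 1474, 1140 and 1381 in A4gnt null and 1336, 1086 and 1187 in wild-type mucosa, while Ms4a1, Cd79a, Cd8a and Fcer2a were not above background on any array. No gene of the 15 lists passed for genotype in limma. The 10 reference genes summed to 1834 to 1953 in A4gnt null and 1580 to 1862 in wild-type mucosa.

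Most marker genes of the gastric gland itself were well above background on all arrays, 6 of 7 for chief cells and 8 of 9 for parietal cells. The chief cell genes included Pgc, pepsinogen C, at 186156, 196942 and 130149 in A4gnt null and 254142, 392431 and 224626 in wild-type mucosa at 5, 10 and 50 weeks. The proton pump gene Atp4a had 15564, 7448 and 5976 in A4gnt null and 21660, 30614 and 13259 in wild-type mucosa. Both were highest on the wild-type array at 10 weeks, on which most enzymes were low. On the scaled log2 level, however, wild-type Atp4a was nearly equal at 10 and 5 weeks, at 6.42 and 6.40, and Pgc was at 10.10 and 9.95. The 5-week wild-type array was high in the enzymes.

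**Figure D4:**
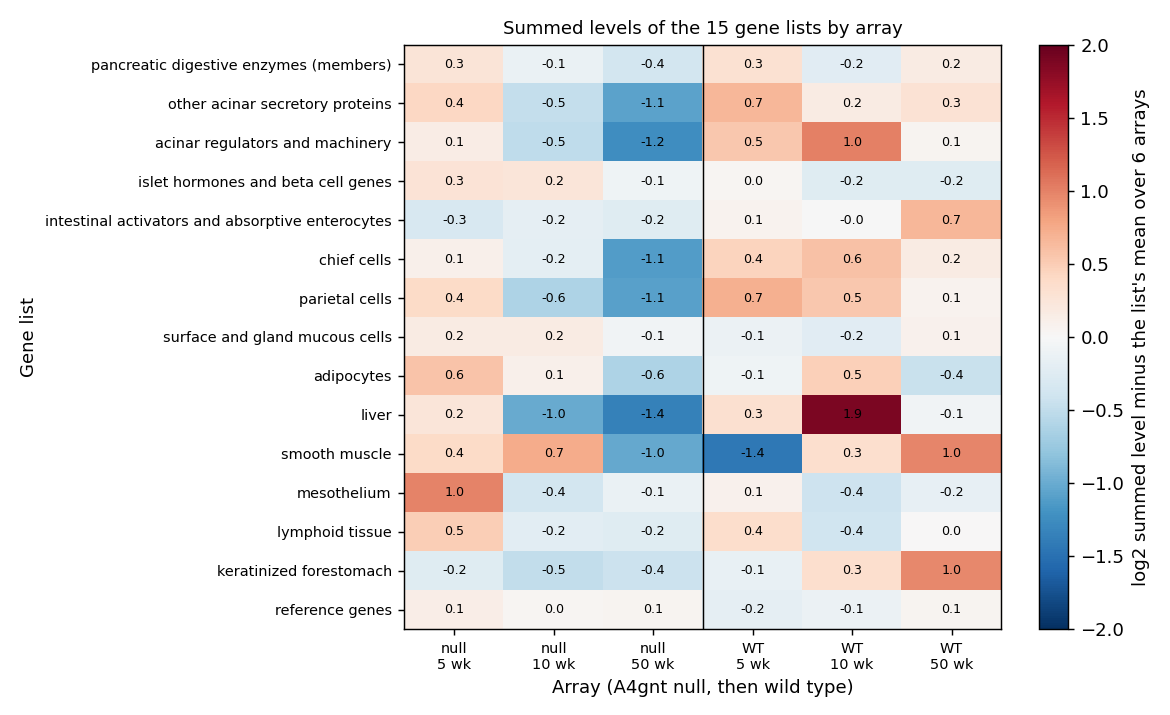
Summed level of each of the 15 gene lists on each of the 6 arrays, as the log2 of the sum minus the list's mean over the arrays (colour and printed value), A4gnt null on the left. The list of members is dominated by Clps, which hides the range of the others. Of the lists of other tissues, the lymphoid list has its 3 highest values on the arrays on which the members were high.

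The promoters of the members were searched for short motifs, since most of the genes varied together. RefSeq promoters of build GRCm38.p6, from 250 bases before to 50 after the start, were found for 9 of the 10 genes. The E-box CACCTG, the part of a PTF1 site that PTF1A binds with its partner, occurred on either strand in 6 of 9 (Cela3a, Cela3b, Cpb1, Ctrl, Prss2 and Cel), and in 20.2% of all 32851 promoters. TTTCCC, the part of that site that RBPJL binds, occurred in 5 of 9 (Cela3a, Cpa1, Ctrb1, Prss2 and Cel) and in 25.2% of all promoters. TATAAA occurred in 3 of 9 and in 13.6%. Of the 17 other acinar genes with a promoter, 9 held the E-box and 6 held the RBPJL motif. The Cela3b and Prss2 promoters are printed, 1 for a gene near background at 10 weeks and 1 for a gene that was not, with each match to CACCTG or to the motif of RBPJL, on either strand, in capitals.
Cela3b promoter, chr4:137430471-137430770, minus strand: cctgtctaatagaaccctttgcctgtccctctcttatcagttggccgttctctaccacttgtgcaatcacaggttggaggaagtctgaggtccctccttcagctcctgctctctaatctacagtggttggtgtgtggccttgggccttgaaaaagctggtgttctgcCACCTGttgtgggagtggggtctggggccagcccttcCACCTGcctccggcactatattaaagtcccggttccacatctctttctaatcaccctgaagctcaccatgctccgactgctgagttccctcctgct
Prss2 promoter, chr6:41521526-41521825, plus strand: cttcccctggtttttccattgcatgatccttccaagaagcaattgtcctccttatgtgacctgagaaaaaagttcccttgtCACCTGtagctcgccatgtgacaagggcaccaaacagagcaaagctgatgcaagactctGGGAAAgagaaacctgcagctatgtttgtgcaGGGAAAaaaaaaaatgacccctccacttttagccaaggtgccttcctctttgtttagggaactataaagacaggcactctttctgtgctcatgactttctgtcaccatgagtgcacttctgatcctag
Cela3b has 2 copies of CACCTG and no TTTCCC, and Prss2 has 1 copy of CACCTG and 2 of TTTCCC. Pnlip, which followed the pattern in full, holds neither motif in this window. A match is a description of letters only.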

How the data were processed

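Gastric mucosa was measured on 6 single-colour Agilent arrays. Per the file headers, spot intensity was read by Agilent Feature Extraction 10.7.1.1, whose processed signal is background-subtracted (build mm9). Per the labels' protocols, RNA was labelled with Cy3. The deposited log2 table holds the log2 of that signal plus 1 constant per array (-7.88 to -8.54, within 0.001 for 100% of 39399 probes). Its column medians were -3.56 to -3.89, and because it repeats the scanner values it was fitted only as 1 of the alternatives.

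Here each array's log2 processed signal was set against its 75th percentile (253 to 402 units). Outlier spots (98 to 144 per array) were dropped and 10 replicate spots of 399 probes averaged. Probes were named through a RefSeq table, 26044 by accession, 3194 by symbol, 930 by synonym and 9231 by the array's name. The probe with the highest mean stood for each gene, and 17858 genes well above background on at least 3 arrays were tested with limma 3.58.1 in R 4.3.3, with 2 residual degrees of freedom and Benjamini-Hochberg adjustment at 0.05. With 1 array per genotype and age, the ages serve as the replicates of a genotype, and p-values measure only the spread between these arrays.

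A fold is "at least" where 1 array was not well above background: that array is set at its lowest signal above background, or at the probe's own if higher. The limma fits set no such limit and used dim signals as measured. The same number stands for a replicate of each genotype because it marks a shared age, so age pairs the arrays. The fit was tested on simulated data. The members and gene lists were chosen with earlier results of these data known. Named were all members, up to 4 genes per other list by range, the 10 most alike, A4gnt, and further genes chosen after their values were seen: the sex-linked genes, Prss1, Pnliprp1, Pla2g1b, Ptf1a, Rbpjl, Bhlha15, Serpini2, Cela1, Zg16, Klk1, Cfd, Adipoq, Pgc and the dim islet, adipocyte and lymphoid genes. Some genes of the lists are not reported here. Alternatives were the deposited table, other normalizations, background corrections, filters, probe choices and the loss of each array.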

Additional observations from a re-analysis of the deposited data

Results flagged for a closer look

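On the scaled level Prss2 and Clps differed in opposite directions between 10 and 50 weeks in the genotypes. Each difference was over 3 times the SD of replicate spots. At 50 against 10 weeks Prss2 differed by -1.72 in A4gnt null and 0.35 in wild-type mucosa on the log2 scale. Clps differed by -0.25 in A4gnt null and 0.34 in wild-type mucosa. Before scaling, the Clps signal rose in both, from 333071 to 345079 in A4gnt null and from 340308 to 348736 in wild-type mucosa. The 75th percentiles used for scaling went from 327 to 402 in A4gnt null and from 358 to 290 in wild-type mucosa. By its second probe Clps was lower at 50 weeks in both genotypes, by -0.90 in A4gnt null and -0.25 in wild-type mucosa. For Clps the opposite direction thus holds for 1 of its 2 probes, and only after scaling. These are single arrays, spot SDs leave out the spread between mice, and the differences were not tested.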

How the results depend on the processing

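Over the alternatives, 110 of 115 values of the members kept their direction and side of the threshold for genotype, 125 of 125 for 10 against 5 weeks, 120 of 125 for 50 against 10 weeks and 123 of 145 for genotype by log age. The number of genes called for genotype was 99 higher and 92 lower with normexp, 1 lower with quantile normalization, 28 higher and 13 lower with a variance trend, and 4 higher and 2 lower with no replicate block, that is without age as a term. The block changed no call of a member. For genotype, Clps turned to 0.048 under median scaling, and leaving out 1 pair of arrays gave -3.51 to 0.32 for Cela3a, -3.71 to 0.052 for Cela3b and -0.21 to 0.080 for Clps. For 10 against 5 weeks, 2 genes were lower with normexp and 1 with a variance trend, and 0 were higher with all 6 arrays above background, with no filter, and without any 1 array of either age. For 50 against 10 weeks, Clps was at -0.27 by the mean of its probes, and leaving out 1 array gave -1.56 to 0.19 for Prss2, -0.29 to 1.58 for Cel and -0.24 to 0.33 for Clps, which was at -0.11 without the 10-week wild-type array. For genotype by log age, normexp gave 0.11 for Ctrl and 0.018 for Cel. Leaving out 1 array gave -10.65 to 8.78 for Cela3a, -8.08 to 8.54 for Cela3b, -9.98 to 9.79 for Cpa1, -8.63 to 6.28 for Cpb1, -8.47 to 8.41 for Pnlip, -6.08 to 6.58 for Ctrb1, -2.55 to 5.01 for Ctrl, -1.46 to 1.57 for Prss2, -1.25 to 3.30 for Cel and -0.31 to 0.17 for Clps. The highest values were those without the wild-type array at 50 weeks. Without the 10-week wild-type array Ctrl and Cel were both at 0.21. Without the 5-week A4gnt null array Cela3a was at 0.37, Cela3b 0.19, Cpa1 0.81, Cpb1 0.57, Pnlip 0.74, Ctrb1 0.42, Ctrl 0.64 and Cel 0.38. The median of the members was -1.35 at 5 weeks by median scaling and -1.27 over probes. At 10 weeks it was 0.15 by median scaling, -0.28 by the mean of probes and -0.18 over probes. At 50 weeks it was -3.78 with normexp, -5.22 with quantile normalization, -5.18 by median scaling and -5.04 over probes. The cause of these changes was not tested. Depth limits the 10-week comparisons, where 4 members were not well above background on either array by the probe used.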
